A study of Bos taurus with 6 samples.

Results

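The miR-34 and miR-449 family was followed in cultured bovine fat cells and their precursors. Its members were taken by name alone, as every known-miRNA entry of the deposited table called bta-miR-34a, bta-miR-34b, bta-miR-34c, bta-miR-449a, bta-miR-449b, bta-miR-449c or bta-miR-449d, with or without an arm ending. All 7 names were found, as 7 of 771 known miRNA entries, and none was divided into a 5p and a 3p entry. The prefix bta- is left out below. The family was compared in 3 adipocyte libraries and 3 preadipocyte libraries, which are small RNA libraries cut to the size of miRNAs. The adipocytes were Holstein preadipocytes induced with insulin, dexamethasone, rosiglitazone and IBMX, and the preadipocytes were cells of the same breed labelled by that cell type. The medium of both was F12/DMEM with FBS (fetal bovine serum) and antibiotics, at passage 4-6, and the source is given as adipose tissue. The labels state neither how long induction lasted nor whether the replicates of a group came from different animals or dishes, and the p-values below thus reflect variation among these libraries, which may be technical.

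The miR-34 and miR-449 miRNAs are described as sharing a seed, the short stretch near the 5′ end that pairs with target messages. Members with the same seed can act on overlapping sets of genes. The seeds of the bovine entries were not checked here. In human and mouse cells p53 directly switches on the miR-34a gene and the shared miR-34b/c gene, and the miR-449 cluster, in an intron of CDC20B, responds to the cell cycle factor E2F1. Targets described for the family include CDK6, E2F3, SIRT1 and NOTCH1, and its members are known for slowing cell division. The miR-34b/c and miR-449 miRNAs are best known in multiciliated epithelia, whereas miR-34a is widely expressed. In mouse fat, miR-34a has been described as raised in obesity and as limiting browning.

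Genes for all 7 members were found by name in RefSeq's annotation of ARS-UCD2.0, from which only names and neighbours were taken. MIR449A, MIR449B and MIR449C all overlap CDC20B. MIR34B and MIR34C both overlap BTG4 and HOATZ, MIR34A overlaps GPR157, and MIR449D, which stands apart from the other miR-449 genes, overlaps NAV2. The number of pairs of members whose own genes overlap was 0. The table assigns miR-34a, miR-34b and miR-34c to family mir-34 and miR-449a, miR-449b and miR-449c to family mir-449, and leaves miR-449d without a family.

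The libraries held 15035059, 15111228 and 19123498 miRNA reads in adipocyte replicates 1, 2 and 3, against 17440838, 14525284 and 22283754 reads in preadipocyte replicates 1, 2 and 3. Reads falling in exons, introns, repeats and intergenic sequence made up 8.21% to 12.0% of the table in adipocytes, against 18.5%, 18.9% and 5.29% in preadipocyte replicates 1, 2 and 3, which sets preadipocyte replicate 3 apart. The most abundant miRNA, miR-21-5p, took 64.0% to 74.1% of the miRNA reads in adipocytes and 77.9% to 80.2% in preadipocytes. Levels are therefore given as counts-per-million (CPM) of the library size after scaling by edgeR's TMM factors, which limit the pull of a few dominant miRNAs. None of these levels is divided by length.

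Of the family, miR-449a was higher in adipocytes, miR-34a had a positive estimate that did not pass the test, and the other 5 members were near the limit of detection. The count of miR-449a was 5529, 5001 and 6367 reads in adipocyte replicates 1, 2 and 3, against 1306, 1382 and 1005 reads in preadipocyte replicates 1, 2 and 3. On the scaled level these were 274, 237 and 326 CPM in adipocytes, against 89.3, 113 and 61.4 CPM in preadipocytes. Every adipocyte library lay above every preadipocyte library. The means were 279 ± 44.6 CPM in adipocytes and 87.8 ± 25.6 CPM in preadipocytes (SD, n = 3 each), which put the log2 of adipocytes over preadipocytes at 1.67, with an SE of 0.33 and an adjusted p of 0.0347 (edgeR quasi-likelihood test, Benjamini-Hochberg adjustment, BH). In bulk libraries such as these, more cells that express a miRNA and more of it per cell cannot be told apart.

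Among the 414 miRNAs tested, 6.28% passed the threshold of 0.05 in that test (26 miRNAs), 3.86% as higher in adipocytes, and the groups did not overlap for 24.2% with adipocytes higher. A log2 difference at least as large as that of miR-449a was estimated for 35 of the 414. Ranked by reads among the known miRNAs, miR-449a stood at places 73, 77 and 64 in adipocyte replicates 1, 2 and 3 and at places 102, 93 and 121 in preadipocyte replicates 1, 2 and 3. The call of miR-449a was lost when any one of 5 libraries was left out. Without adipocyte replicates 1, 2 or 3 the log2 differences were 1.67, 1.77 and 1.33 (edgeR BH-adjusted p = 0.14, 0.119 and 0.13), and without preadipocyte replicates 1 or 2 they were 1.67 and 1.88 (edgeR BH-adjusted p = 0.11 and 0.0649). Without preadipocyte replicate 3 it was 1.45, past the threshold (edgeR BH-adjusted p = 0.0229). The count of all miRNAs past the threshold moved as well, to 1, 1 and 8 without adipocyte replicates 1, 2 and 3 and to 4, 1 and 148 without preadipocyte replicates 1, 2 and 3.

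The p53-responsive miR-34a was by far the most abundant member. It had 161324, 141620 and 139295 reads in adipocyte replicates 1, 2 and 3, against 75234, 84161 and 64428 reads in preadipocyte replicates 1, 2 and 3. By reads it ranked in place 8 among the known miRNAs in each adipocyte library, and in places 10, 10 and 15 in preadipocyte replicates 1, 2 and 3. After scaling, the levels were 7997, 6704 and 7123 CPM in adipocytes, against 5142, 6855 and 3937 CPM in preadipocytes. The groups overlapped on this scale, because preadipocyte replicate 2 lay above adipocyte replicate 2. The means were 7275 ± 659 CPM in adipocytes and 5311 ± 1470 CPM in preadipocytes (SD, n = 3 each), for a log2 value of adipocytes over preadipocytes of 0.45 with an SE of 0.26 (edgeR BH-adjusted p = 0.241), and 154 of the 414 tested miRNAs had an estimate at least as high.

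**Figure D1:**
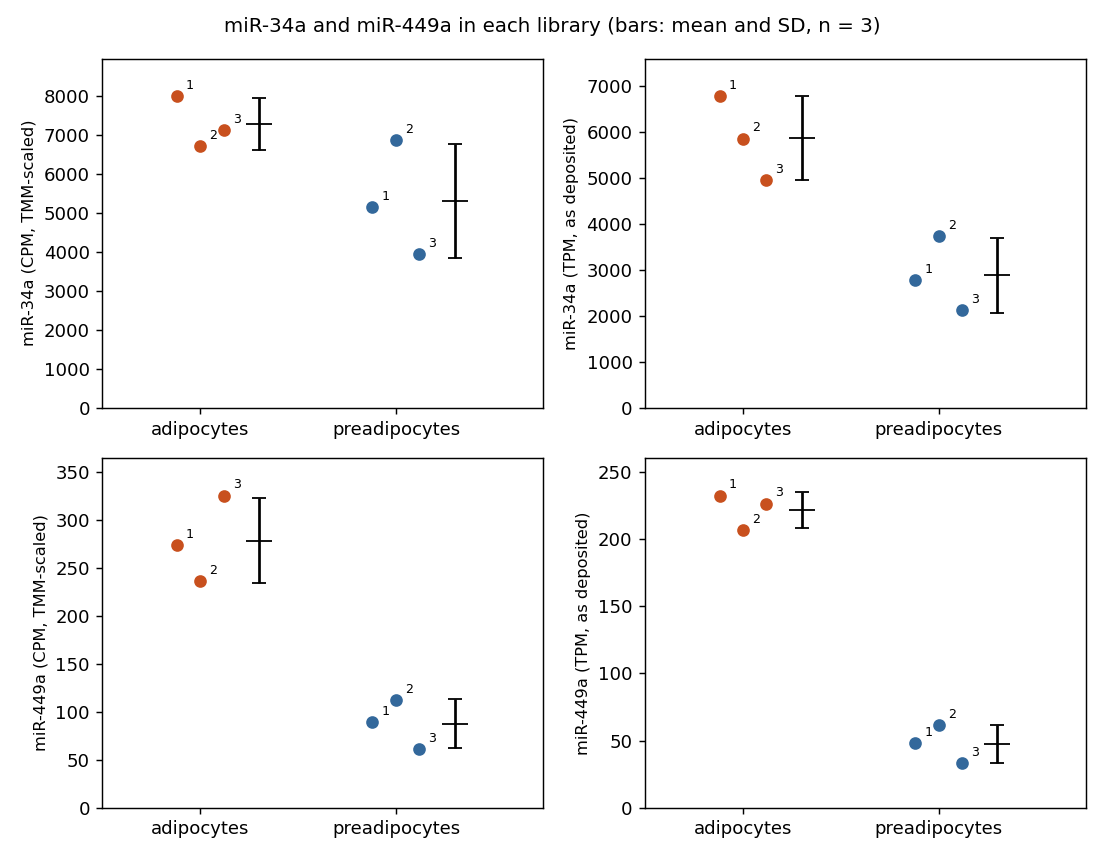
Level of miR-34a (top) and miR-449a (bottom) in each library, as TMM-scaled CPM (left) and as deposited TPM (right); numbered points are replicates, and the black bars are the mean and SD of 3 libraries. For miR-34a the groups overlap in CPM (6704 in adipocyte replicate 2, 6855 in preadipocyte replicate 2) but not in TPM, and for miR-449a they lie apart on both scales.

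The call of miR-34a changed with the scaling of the libraries. The deposited TPM values, which are counts over a library total with no TMM factor, were 6780, 5854 and 4954 TPM in adipocytes, against 2781, 3729 and 2126 TPM in preadipocytes, and on this scale the groups did not overlap. That was also so, with adipocytes higher, for 38.4% of the tested miRNAs. With library totals alone in edgeR, miR-34a stood at a log2 difference of 1.07 and was called (edgeR BH-adjusted p = 0.0493), in a fit where the median of all tested miRNAs was 0.62, against -0.02 with TMM factors. Measured from the median of each fit, miR-34a lay 0.48 above it with TMM factors and 0.46 above it with library totals, upper-quartile or RLE factors. The corresponding distances of miR-449a were 1.69 with TMM factors, 1.64 with library totals, 1.69 with upper-quartile factors and 1.68 with RLE factors. A change of scaling alone moves all estimates nearly together, so these distances could hardly differ. They did move with the libraries used. Without preadipocyte replicate 3 they were 0.18 for miR-34a and 1.37 for miR-449a, and without preadipocyte replicate 2 they were 0.76 and 1.97. The call of miR-449a was lost with upper-quartile factors (1.38, edgeR BH-adjusted p = 0.0612) and held with library totals (2.26, edgeR BH-adjusted p = 0.0169).

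**Figure D2:**
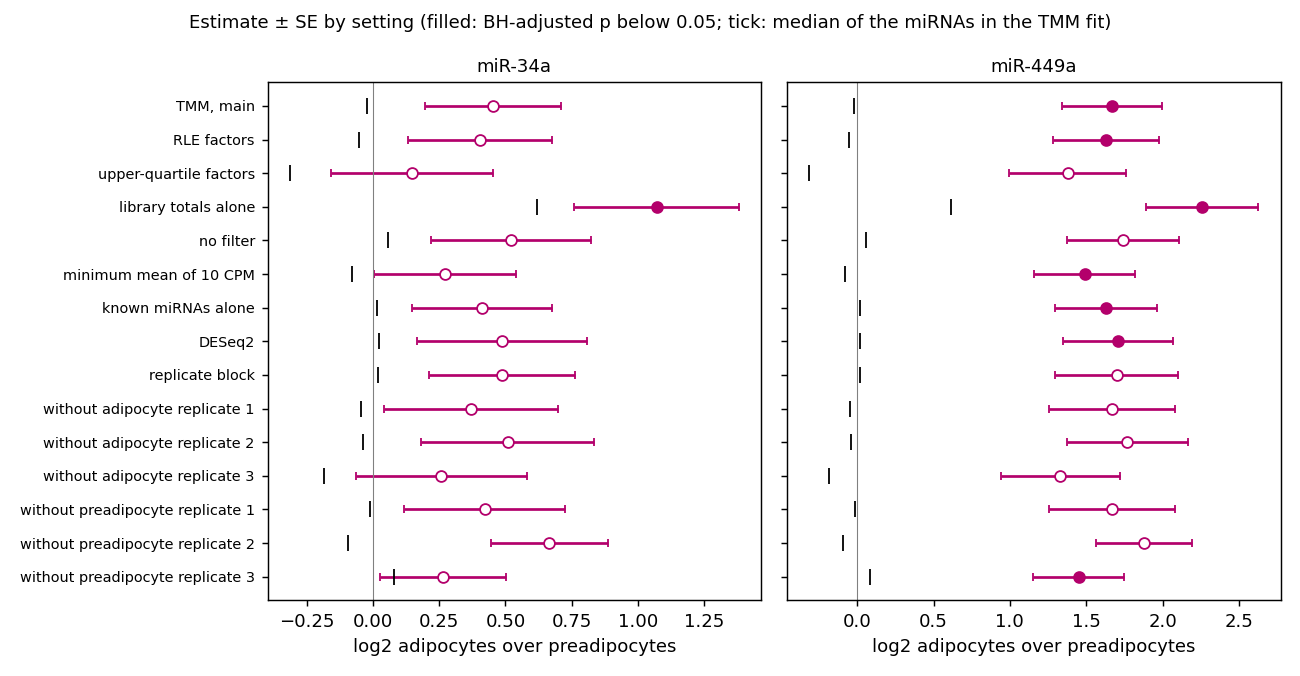
Log2 difference of adipocytes over preadipocytes (points, with SE) for miR-34a (left) and miR-449a (right) under each setting; filled points have an adjusted p below 0.05 and ticks mark the median of the miRNAs tested with TMM factors. All estimates are above 0 for both, from 0.15 to 1.07 for miR-34a and from 1.33 to 2.26 for miR-449a, and the points move with the ticks where only the scaling changes.

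A ratio of 2 members within a library needs no scaling between libraries. For each 1000 reads of miR-34a there were 34.3, 35.3 and 45.7 reads of miR-449a in adipocyte replicates 1, 2 and 3, against 17.4, 16.4 and 15.6 reads in preadipocyte replicates 1, 2 and 3. The preadipocyte libraries were close to each other and all lay below the adipocyte libraries, among which replicate 3 was the highest. The mean log2 ratio of miR-449a to miR-34a was -4.71 ± 0.23 in adipocytes and -5.93 ± 0.08 in preadipocytes (SD, n = 3 each). Permuting the labels exactly, two-sided, gave p = 0.1 for the difference of 1.21, which is the lowest value that 3 against 3 libraries allow. It ranged from 1.08 to 1.29 when each library was left out in turn, lowest without adipocyte replicate 3. Such a ratio shows that the members differed unequally and not which of them changed.

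The make-up of the family differed in the same way. Its reads came mostly from miR-34a, which made up 95.6% to 96.7% of the family's reads in adipocytes and 98.3% to 98.4% in preadipocytes. The share of miR-449a was 3.31% in adipocyte replicate 1 (exact Clopper-Pearson 95% interval 3.23 to 3.40), 3.41% in replicate 2 (3.32 to 3.50) and 4.37% in replicate 3 (4.27 to 4.48). In preadipocytes it was 1.71% in replicate 1 (1.62 to 1.80), 1.62% in replicate 2 (1.53 to 1.70) and 1.54% in replicate 3 (1.44 to 1.63). These intervals cover counting error only, and the gap between adipocyte replicate 3 and the other adipocyte libraries was wider than that error. The family as a whole took 1.11%, 0.971% and 0.762% of miRNA reads in adipocyte replicates 1, 2 and 3, against 0.439%, 0.589% and 0.294% in preadipocyte replicates 1, 2 and 3. On the TMM scale its sum averaged 7556 ± 671 CPM in adipocytes, against 5400 ± 1490 CPM in preadipocytes (SD, n = 3 each). The groups overlapped here, with 6944 CPM in adipocyte replicate 2 and 6968 CPM in preadipocyte replicate 2. The log2 difference of the sum, given with no test, was 0.52 with TMM factors, 0.22 with upper-quartile factors and 1.14 with library totals.

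**Figure D3:**
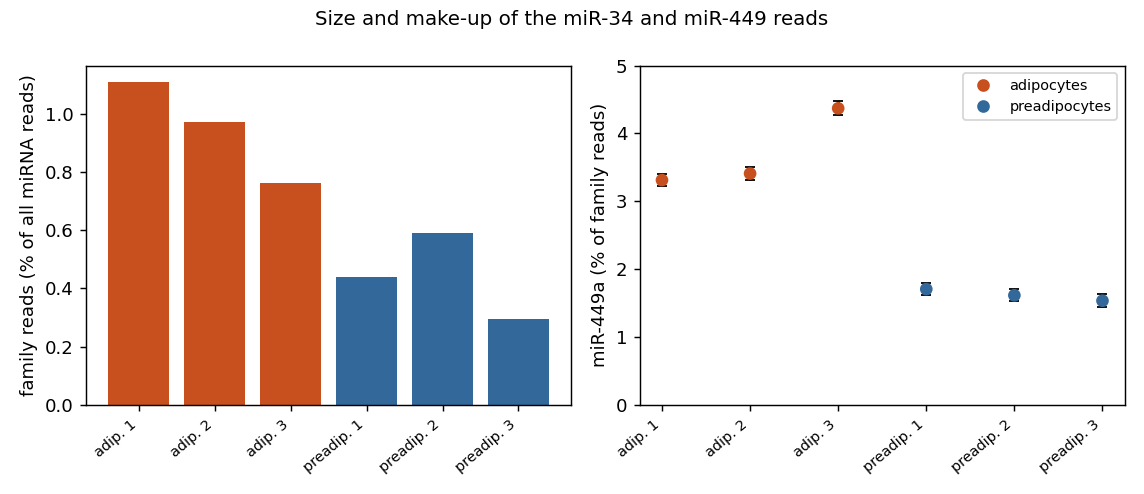
Left, reads of the 7 members as a percent of all miRNA reads in each library, before any scaling factor; right, miR-449a as a percent of the family's reads with exact 95% intervals for counting error. Adipocyte libraries lie at 0.762% to 1.11% and preadipocyte libraries at 0.294% to 0.589% on the left, and at 3.31% to 4.37% and 1.54% to 1.71% on the right.

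The other 5 members together had 36, 54 and 17 reads in adipocyte replicates 1, 2 and 3, against 13, 11 and 19 reads in preadipocyte replicates 1, 2 and 3. None of them passed the filter on low counts, so the edgeR test above held 2 of the 7 members, of which 1 was called. Among all known miRNA entries 365 of 771 passed that filter, and 26 of all 414 tested miRNAs were called (6.28%). Taking 3 reads as what a count of 0 allows, the limit in one library was 0.142 to 0.153 CPM in adipocytes and 0.183 to 0.244 CPM in preadipocytes. Most values of these members were within a few reads of that limit.

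The clustered pair miR-34b and miR-34c, made from a single p53-responsive precursor transcript in human and mouse, differed widely among the adipocyte libraries. There were 1, 21 and 9 reads of miR-34b in adipocyte replicates 1, 2 and 3, against 4, 0 and 1 reads in preadipocyte replicates 1, 2 and 3. For miR-34c there were 23, 29 and 3 reads in adipocyte replicates 1, 2 and 3, against 5, 4 and 11 reads in preadipocyte replicates 1, 2 and 3. The groups overlapped for both, since adipocyte replicate 1 was low for miR-34b and adipocyte replicate 3 was low for miR-34c. Pooled over 3 libraries, miR-34b stood at 0.509 CPM in adipocytes (exact Poisson 95% interval 0.346 to 0.723) and 0.116 CPM in preadipocytes (0.0375 to 0.27), and miR-34c at 0.904 CPM in adipocytes (0.681 to 1.18) and 0.462 CPM in preadipocytes (0.282 to 0.714). Those intervals leave out the spread between libraries, and in the edgeR fit without a filter, which takes that spread in, BH-adjusted p was 0.331 for miR-34b and 0.476 for miR-34c.

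The 2 neighbours of miR-449a in CDC20B were not abundant in either group, whereas miR-449a itself had 16897 reads over the adipocyte libraries and 3693 over the preadipocyte libraries. Reads of miR-449b numbered 7, 4 and 3 in adipocyte replicates 1, 2 and 3, against 0, 5 and 7 in preadipocyte replicates 1, 2 and 3. Reads of miR-449c numbered 5, 0 and 2 in adipocyte replicates 1, 2 and 3, and 0 in each preadipocyte library, which allows a pooled preadipocyte level of up to 0.0693 CPM. The separately located miR-449d had 0 reads in each adipocyte library, which allows a pooled level of up to 0.0493 CPM, against 4, 2 and 0 reads in preadipocyte replicates 1, 2 and 3. In edgeR without a filter the BH-adjusted p was 0.911 for miR-449b, 0.267 for miR-449c and 0.244 for miR-449d. No difference in these 3 passed the threshold, and what depth would show one was not tested. The sources used here do not give the counting rule for reads that match several members, so reads of members with near-identical sequence may have been divided between their names or all given to one.

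**Figure D4:**
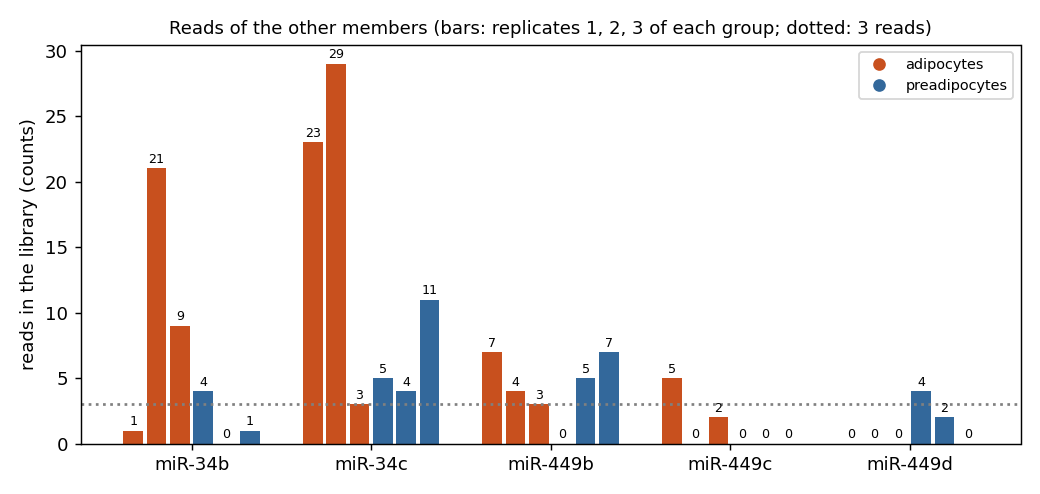
Reads of the 5 members of low abundance, as counts in each library, with replicates 1, 2 and 3 of adipocytes left of those of preadipocytes; the dotted line marks 3 reads, the limit that a count of 0 allows. The highest bars are 29 and 23 reads of miR-34c and 21 reads of miR-34b, all in adipocyte libraries, and most others are under 10 reads.

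In the order of pooled levels, adipocytes held miR-34a, then miR-449a, then miR-34c, miR-34b, miR-449b and miR-449c, with miR-449d at 0. The exact Poisson intervals of neighbours in that order overlapped from miR-34c downwards. In preadipocytes the order below miR-449a was miR-34c, miR-449b (0.277 CPM, 0.143 to 0.484), miR-449d (0.139 CPM, 0.0509 to 0.302), miR-34b and miR-449c, again with overlapping intervals between neighbours. All 5 lay far below miR-34a and miR-449a, at pooled levels under 1 CPM in both groups.

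**Figure D5:**
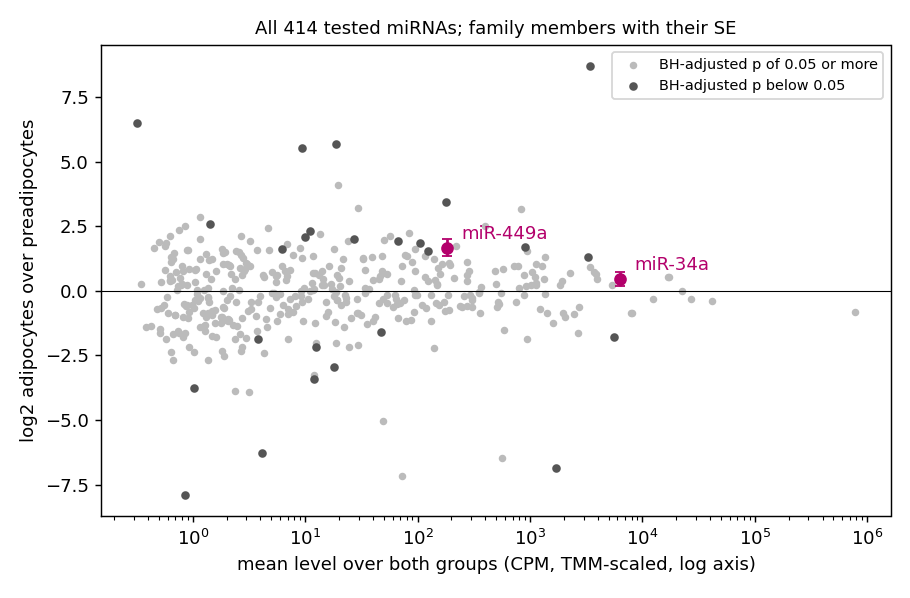
Log2 difference of adipocytes over preadipocytes against the mean TMM-scaled level (log axis) for the 414 tested miRNAs, with dark points for those with an adjusted p below 0.05 and SE bars on the 2 tested family members. miR-449a lies at 1.67, among the called miRNAs, and the far more abundant miR-34a at 0.45, among those not called.

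Other miRNAs described as induced by p53 did not move as one. Of 13 names in that list, 12 were in the table and 10 were tested, of which miR-15a rose, 0 fell and 9 did not pass, beside 6.28% past the threshold and 3.86% higher among all 414. Their median log2 difference was 0.44 and 6 of 10 estimates were positive, beside a median of -0.02 and 207 positive estimates over all tested miRNAs. Adipocytes held 183 ± 48.8 CPM of miR-15a, which represses the survival gene BCL2, and preadipocytes held 62.4 ± 13.6 CPM (SD, n = 3 each), a log2 difference of 1.56 (edgeR BH-adjusted p = 0.0481). That call was lost without any one of adipocyte replicates 1, 2 and 3 (edgeR BH-adjusted p = 0.185, 0.165 and 0.0789) or of preadipocyte replicates 1 and 2 (0.121 and 0.115), and its reads may be shared with the similar miR-15b. The 2 most abundant of the list were miR-143 and miR-145, which come from a single precursor transcript and whose maturation p53 has been described as promoting. Their levels were 24210 ± 4810 CPM in adipocytes and 30170 ± 7970 CPM in preadipocytes for miR-143 (log2 difference -0.32, edgeR BH-adjusted p = 0.434, n = 3 each), and 1292 ± 579 CPM in adipocytes and 4027 ± 1590 CPM in preadipocytes for miR-145 (-1.64, edgeR BH-adjusted p = 0.0637, n = 3 each).

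These counts differed between settings. With library totals alone, miR-15a, miR-16a, miR-16b, miR-107 and miR-1246 passed as higher, 5 of the 10, beside 88 of all 414 in that fit, and the estimate of miR-143 turned positive (0.32). With upper-quartile factors 0 were higher and miR-145 was lower (-1.91, edgeR BH-adjusted p = 0.0447), beside 15 higher and 34 lower of all 414 in that fit. At a minimum mean of 10 CPM, with known miRNAs alone and with DESeq2, miR-145 passed as lower (BH-adjusted p = 0.0412 and 0.0477 in edgeR and 0.00819 in DESeq2) and miR-107 as higher (BH-adjusted p = 0.0483 and 0.0483 in edgeR and 0.00135 in DESeq2). In the same fits miR-15a passed as higher (BH-adjusted p = 0.0355 and 0.04 in edgeR and 3.25e-05 in DESeq2). Also higher were miR-1246 with known miRNAs alone (edgeR BH-adjusted p = 0.0477) and DESeq2 (BH-adjusted p = 0.00743), and miR-16b with DESeq2 (BH-adjusted p = 0.0332). Of all miRNAs with an adjusted p, 21.1%, 16.2% and 22% passed in these fits. Calls of miR-16a, miR-192, miR-194 and miR-215 in these fits are not given here. The MYC-driven miR-17-92 cluster and its relatives, which favour cell division, had 12 tested members, of which 0 passed in either direction with TMM or RLE factors, beside 6.28% and 6.52% of all 414. Their median log2 difference was 0.07 with TMM factors, -0.23 with upper-quartile factors and 0.74 with library totals, beside medians over all tested miRNAs of -0.02, -0.31 and 0.62 in the same fits. With upper-quartile factors miR-92a was called lower, beside 34 of all 414 lower and 11.8% called in either direction. With library totals miR-17-3p was called higher, beside 88 of all 414 higher and 23.4% called in either direction.

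Markers of other cell types were present at different levels. The epithelial miRNAs, which mark the cells in which miR-34b/c and miR-449 are best known, were found for 9 of 11 names, and their summed level was 1.94 to 2.33 CPM in adipocytes and 2.14 to 3.42 CPM in preadipocytes. The most abundant of them in preadipocytes, miR-375, had 6, 8 and 8 reads in adipocyte replicates 1, 2 and 3, against 27, 16 and 11 reads in preadipocyte replicates 1, 2 and 3. The most abundant in adipocytes and the only epithelial miRNA tested, miR-96, leaned the other way without passing (edgeR BH-adjusted p = 0.31). Its reads were 23, 12 and 18 in adipocyte replicates 1 to 3, against 1, 8 and 8 in preadipocyte replicates 1 to 3. Mean levels of miR-141, miR-182, miR-200a and miR-200b were also higher in adipocytes, and those of miR-183, miR-200c and miR-429 were lower. The 5 blood-cell miRNAs summed to 0.379 to 1.02 CPM in adipocytes and 1.96 to 4.64 CPM in preadipocytes, with miR-142-3p and miR-144 at 0 in the preadipocyte libraries. Most of that sum in preadipocytes was the red-cell miR-451, at 15, 4 and 17 reads in adipocyte replicates 1, 2 and 3, against 44, 54 and 29 reads in preadipocyte replicates 1, 2 and 3 (log2 difference -2.33, edgeR BH-adjusted p = 0.0637). The endothelial miR-126, with both arms, summed to 43.0 to 67.9 CPM in adipocytes and 114 to 455 CPM in preadipocytes. Its 3p arm stood at 112, 137 and 446 CPM in preadipocyte replicates 1, 2 and 3. Neither arm passed (edgeR BH-adjusted p = 0.0637 for 3p and 0.189 for 5p). The 4 muscle miRNAs summed to 20.6 to 25.8 CPM in adipocytes and 21.3 to 52.9 CPM in preadipocytes. Most of the muscle sum was miR-1, while miR-133a fell to 1.63 ± 0.34 CPM in adipocytes, against 5.99 ± 1.46 CPM in preadipocytes (SD, n = 3 each), a log2 difference of -1.88 (edgeR BH-adjusted p = 0.0293). That call too was lost without any one of the adipocyte replicates (edgeR BH-adjusted p = 0.14, 0.119 and 0.0781) or of preadipocyte replicates 1 and 2 (0.0968 and 0.0649). Of the 13 tested mesenchymal entries, 9 had positive estimates with a median of 0.47, and 2 rose (miR-199a-3p and miR-100) and 0 fell. Among all 414 tested miRNAs, 207 estimates were positive with a median of -0.02, 3.86% rose and 6.28% passed in either direction. The mesenchymal sum was 516400 to 774000 CPM in adipocytes and 965000 to 1143000 CPM in preadipocytes, most of it miR-21-5p. The call of miR-100 was lost without any one library except preadipocyte replicate 3 (edgeR BH-adjusted p = 0.0789 to 0.14), and the gene of miR-199a-3p overlaps that of miR-3604, with which it may share reads. The part of epithelial, blood, endothelial, muscle or other mesenchymal cells in the family's levels was not tested.

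The miRNAs whose pattern over the 6 libraries was most like that of a member were sought among 201 other known miRNAs with a mean of at least 10 CPM, by the root mean square difference of log2 CPM after centring each miRNA on its own mean. For miR-34a the nearest were miR-211 (0.11), miR-1468 (0.17), let-7f (0.20), miR-125b (0.20) and miR-127 (0.23), against a median of 0.64 over the 201. The levels of miR-211 were 52.7 ± 8.03 CPM in adipocytes and 38.5 ± 11.3 CPM in preadipocytes (SD, n = 3 each). For miR-449a the nearest were miR-154b (0.42), miR-376b (0.46), miR-199c (0.46), miR-100 (0.50) and miR-411a (0.52), against a median of 1.02. Adipocytes held 27.0 ± 4.56 CPM of miR-154b and preadipocytes 14.5 ± 4.43 CPM, and the levels of miR-376b were 163 ± 36.2 CPM in adipocytes and 45.6 ± 5.61 CPM in preadipocytes (SD, n = 3 each). Between miR-34a and miR-449a themselves the same measure was 0.62, so neither was among the nearest of the other. Reads of miR-211, let-7f and miR-199c may be shared with near-identical relatives.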

How the data were processed

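Small RNA of 3 adipocyte and 3 preadipocyte samples was sequenced, with groups taken from the labels. The deposited table gives whole-number read counts, not normalized by the authors per the file headers and values, and deposited TPM values, which are counts scaled to a library total with 0 written as 0.001. The submitters' processing notes name Bowtie2. The build, the miRNA release, the multi-mapping rule and the meaning of the type column's "hairpin" and "mature" are not given in the sources used here. Counts of 771 known and 108 predicted miRNAs were fitted in edgeR 4.0.16 (R 4.3.3; TMM, filterByExpr, glmQLFit, glmQLFTest, group only, two-sided), with Benjamini-Hochberg adjustment over the 414 rows left (365 of them known). DESeq2 1.42.0 was an alternative. The steps were tested on simulated counts. Ratios had 0.5 added to each count, as did CPM before the likeness measure. Tables and plots used Python 3.11.15, pandas 2.3.3 and matplotlib 3.10.9. All members are named, with the abundant or called miRNAs of the p53 list and the 5 nearest patterns. Members and lists were chosen with earlier results of these data known. Replicates of a group differed beyond sampling noise.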

Additional observations from a re-analysis of the deposited data

Results flagged for a closer look

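The table also holds family-level entries from Rfam, a database of RNA families, which stayed out of the comparisons because they may share reads with the miRNA entries. The Rfam entry for mir-449 held 157, 121 and 138 reads in adipocyte replicates 1, 2 and 3, against 37, 45 and 99 reads in preadipocyte replicates 1, 2 and 3, and it is listed here because it was left out of those comparisons. Scaled as the miRNAs were, it averaged 6.86 ± 1.04 CPM in adipocytes, against 4.08 ± 1.8 CPM in preadipocytes (SD, n = 3 each), and the groups overlapped, since preadipocyte replicate 3 (6.05 CPM) lay above adipocyte replicate 2 (5.73 CPM). Its reads equalled 2.17% to 2.84% of those of miR-449a in the adipocyte libraries, against 2.83%, 3.26% and 9.85% in preadipocyte replicates 1, 2 and 3. The Rfam entry for mir-34 held 3, 1 and 6 reads in adipocyte replicates 1, 2 and 3, against 2, 6 and 1 reads in preadipocyte replicates 1, 2 and 3.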

How the results depend on the processing

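Direction held for miR-34a and miR-449a in all 14 alternatives to the TMM fit. The difference between groups in the mean log2 ratio of miR-449a to miR-34a stayed at 1.21 with 1 or 0 added to each count. For miR-34a (0.45) only library totals changed the call (1.07); leaving out 1 library gave 0.26 to 0.67. For miR-449a (1.67) the call was lost with upper-quartile factors (1.38) and without a filter (1.74, edgeR BH-adjusted p = 0.0546), and leaving out 1 library gave 1.33 to 1.88; it held with RLE factors, library totals, a minimum of 10 CPM, known miRNAs alone and DESeq2 (BH-adjusted p = 5.23e-05). The summed family (0.52) moved to 0.22 with upper-quartile factors and 1.14 with library totals, and ranged from 0.31 to 0.70 with 1 library left out. The count of 26 miRNAs (16 higher, 10 lower) became 49 (15 and 34) with upper-quartile factors, 97 (88 and 9) with library totals, 45 (20 and 25) at a minimum of 10 CPM, 59 (27 and 32) with known miRNAs alone and 116 (59 and 57) with DESeq2, and 1 to 148 with 1 library left out; the cause was not tested. Deviations of same-numbered libraries correlated at 0.04, -0.34 and 0.05, and those of differently numbered libraries at -0.275 to 0.273. With 3 libraries per group, these values cannot settle whether replicate numbers pair the samples. With the replicate block, the count was 1 and miR-449a gave 1.70 (edgeR BH-adjusted p = 0.142). The group difference in mean log2 ratio was again 1.21, which blocking could not change. The mean of 3 paired differences equals the difference of the group means. An alternative with 5p entries alone could not be run, as the family has no entries by arm. Counts near 0 limit what can be said of miR-34b, miR-34c, miR-449b, miR-449c and miR-449d.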
